A study of Homo sapiens with 12 samples.

Results

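IFIT1, IFIT2, IFIT3, IFIT5, MX1, MX2, IFI6, IFI27, IFI44 and IFI44L were followed as a set of genes that are classically induced by type I interferon. The set was given by gene symbol, and each symbol matched 1 Ensembl gene ID, so the set held 10 of the 40173 gene IDs in the expression table. All 10 were among the 12773 gene IDs tested, those whose mean level reached 2 TPM in some condition (TPM is a measure of transcript abundance scaled to transcript length and library). RNA was sequenced from 624Mel cells, an established human melanoma line, after transfection with a control siRNA (siCTRL) or an siRNA against MITF (siMITF), the transcription factor that drives the melanocytic programme. All cells were transfected. Each transfection was followed at 24 h by no interferon or by 5 ng/mL IFNγ, and cells were harvested 24 h later, which gave 4 conditions with 3 libraries each. The question here was how far IFNγ, the type II interferon, drove these genes, and whether reduced MITF changed that. The knockdown is transient and was made in 1 cell line, which limits it as a model of dedifferentiated melanoma.

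Type I interferons bind the IFNAR1 and IFNAR2 receptor and activate JAK1 and TYK2, which leads to the complex ISGF3, of which STAT2 and IRF9 are subunits. ISGF3 binds a promoter element known as the interferon-stimulated response element (ISRE). IFNγ binds a different receptor and acts mainly through gamma-activated sites (GAS) in promoters and through IRF1, a transcription factor made in response that can also bind ISRE-like elements. The IFIT proteins bind RNA or each other and restrict translation of foreign RNA. MX1 and MX2 are dynamin-like GTPases that restrict viruses, IFI6 and IFI27 are small membrane proteins of a common family, and IFI44 and IFI44L are closely related antiviral proteins.

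The genes lie at 5 sites in the genome. On chromosome 10, in build GRCh38, IFIT2 (chr10:89283694-89309271), IFIT3 (chr10:89327307-89377473), IFIT1 (chr10:89392546-89406487) and IFIT5 (chr10:89414568-89421605) follow each other on the plus strand. IFI44L (chr1:78619902-78646145) and IFI44 (chr1:78649796-78664078) are plus-strand neighbours with 3650 bases between them. MX2 (chr21:41361999-41409393) and MX1 (chr21:41420020-41470071) are likewise plus-strand neighbours, with 10626 bases between them. IFI6 (chr1:27666064-27672212) is on the minus strand and IFI27 (chr14:94104836-94116695) on the plus strand. LIPA, a lysosomal lipase gene on the minus strand (chr10:89213569-89414557), spans IFIT2, IFIT3 and IFIT1, and TMPRSS2 on the minus strand (chr21:41464300-41531116) overlaps the end of MX1. The library kit named in the study's methods, TruSeq RNA v2, does not mark strand, so reads from overlapping exons cannot be told apart. LIPA had mean levels of 30.7 TPM in siCTRL and 38.4 TPM in siMITF without IFNγ, and of 34.2 and 43.0 TPM with it, and it was not called changed in any comparison.

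RefSeq promoters (GRCh38.p14) were listed for 8 of the 10 genes, with 13 start sites, and not for IFIT2 or MX2. In the 250 bases before each start, both strands were searched for the ISRE letters (GAAA, any 2 bases, GAAA), for the GAS letters TTCNNNGAA, and for GAAANGAAA, in which the repeats are 1 base closer. The last was added after MX1's promoters had been read. The ISRE letters were found in all 8 genes, at 11 of the 13 starts, against 3.71% of 27305 genes with a listed promoter and 3.02% of the 35116 promoters. The GAS letters were found in 2 of the 8, IFI27 and MX1, against 8.09% of genes, and in both they overlapped an ISRE match. GAAANGAAA was found in 3 of the 8 (IFI44, IFIT3 and MX1) against 3.34% of genes, or 2.69% of promoters. The windows below show how the match is placed in 7 genes that were induced by IFNγ and in MX1, which was not. Each is read 5′ to 3′ along the gene, and capitals mark the match in either orientation.
IFIT1, chr10:89392495-89392541, plus strand: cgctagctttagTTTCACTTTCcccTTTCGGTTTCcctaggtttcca
IFIT3, chr10:89327829-89327896, plus strand: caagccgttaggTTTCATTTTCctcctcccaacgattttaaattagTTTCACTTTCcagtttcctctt
IFIT5, chr10:89414513-89414542, plus strand: ttctattaagTTTCGGTTTCtgaagcttac
IFI6, chr1:27672264-27672360, minus strand: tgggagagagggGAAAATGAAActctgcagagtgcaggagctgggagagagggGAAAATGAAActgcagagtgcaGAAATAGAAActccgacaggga
IFI27, chr14:94110616-94110662, plus strand: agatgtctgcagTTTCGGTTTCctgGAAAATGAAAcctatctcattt
IFI44, chr1:78649759-78649788, plus strand: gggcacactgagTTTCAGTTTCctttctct
IFI44L, chr1:78620365-78620394, plus strand: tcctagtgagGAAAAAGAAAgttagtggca
MX1, start at 41432050, chr21:41431842-41431875, plus strand: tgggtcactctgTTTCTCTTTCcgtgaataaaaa
MX1, start at 41426239, closer spacing, chr21:41426116-41426144, plus strand: aggagctaggTTTCGTTTCtgcgcccgga
MX1, start at 41426239, closer spacing, chr21:41426161-41426189, plus strand: ggtctgtgagTTTCATTTCttcgcggcgc
Measured from the first base of the match, the pair in IFIT1 lay 116 and 103 bases before the start, and the 3 matches in IFI6 156, 115 and 93. The pair in IFI27 lay 108 and 95 bases before the start at 94110736, and 187 and 174 before the one at 94110815. The match in IFI44 lay 18 bases before the start at 78649789 and 60 before the one at 78649831. Of the 3 MX1 starts, only the one at 41432050 had the ISRE letters, 196 bases upstream, whereas matches with the closer spacing lay 113 and 68 bases before the start at 41426239 and 19 bases before the start at 41420558. These matches describe letters in the reference and not sites shown to be bound.

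TPM keep no read totals, so the depth of each library is unknown. The listed values summed to between 975336 and 982632 TPM per library, and 11850 to 12377 gene IDs reached 2 TPM. Mitochondrial transcripts took 7.42% to 16.9% of TPM, from 7.42% to 12.7% in the replicate 2 libraries and from 12.8% to 16.9% in the others. Within each siRNA and replicate number, this share was higher with IFNγ than without it. The part of these differences in the results was not tested. MITF fell with siMITF, with a log2 fold change of -2.29 without IFNγ and -2.14 with it (limma adjusted p = 1.16e-06 and 2.39e-06). The summed level of 7 melanocytic markers was 7120 to 9510 TPM in the siCTRL libraries with or without IFNγ and 2140 to 2640 TPM in the siMITF libraries. The sum is weighted to PMEL and TYRP1 (siCTRL means without IFNγ of 4827 and 2149 TPM). Without IFNγ, 4 of the 7 were called lower with siMITF, while PAX3 was higher (log2 fold change 0.35, limma adjusted p = 0.00848). The summed levels of epithelial, endothelial and fibroblast markers were at most 1.54 TPM in any library, and that of 5 leukocyte markers 1.96 to 5.55 TPM. Of these 5 only LYZ reached 2 TPM, with means without IFNγ of 2.44 TPM in siCTRL and 4.74 TPM in siMITF.

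In siCTRL cells, 8 of the 10 genes rose with IFNγ, against 2.42% of all genes tested, and MX1 and MX2 did not pass the test. A gene was called changed where the limma adjusted p was under 0.05, the log2 fold change of (TPM + 1) was 1 or more in size, and the mean reached 2 TPM in either condition compared. Fold changes on this scale understate the change of low genes, so the fold of mean TPM is given as well. IFIT2, IFI27 and IFI44L reached 2 TPM only with IFNγ and so entered the test only through the treated libraries. Of the 7 other genes, 5 rose. How many of all genes tested had libraries without overlap was not computed, so any lack of overlap given below is only a description. The median log2 fold change of the 10 genes was 2.94, beside -0.07 for all genes tested. Because RNA was taken from bulk cultures, a change in the share of responding cells and a change in RNA per cell cannot be told apart.

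**Figure D1:**
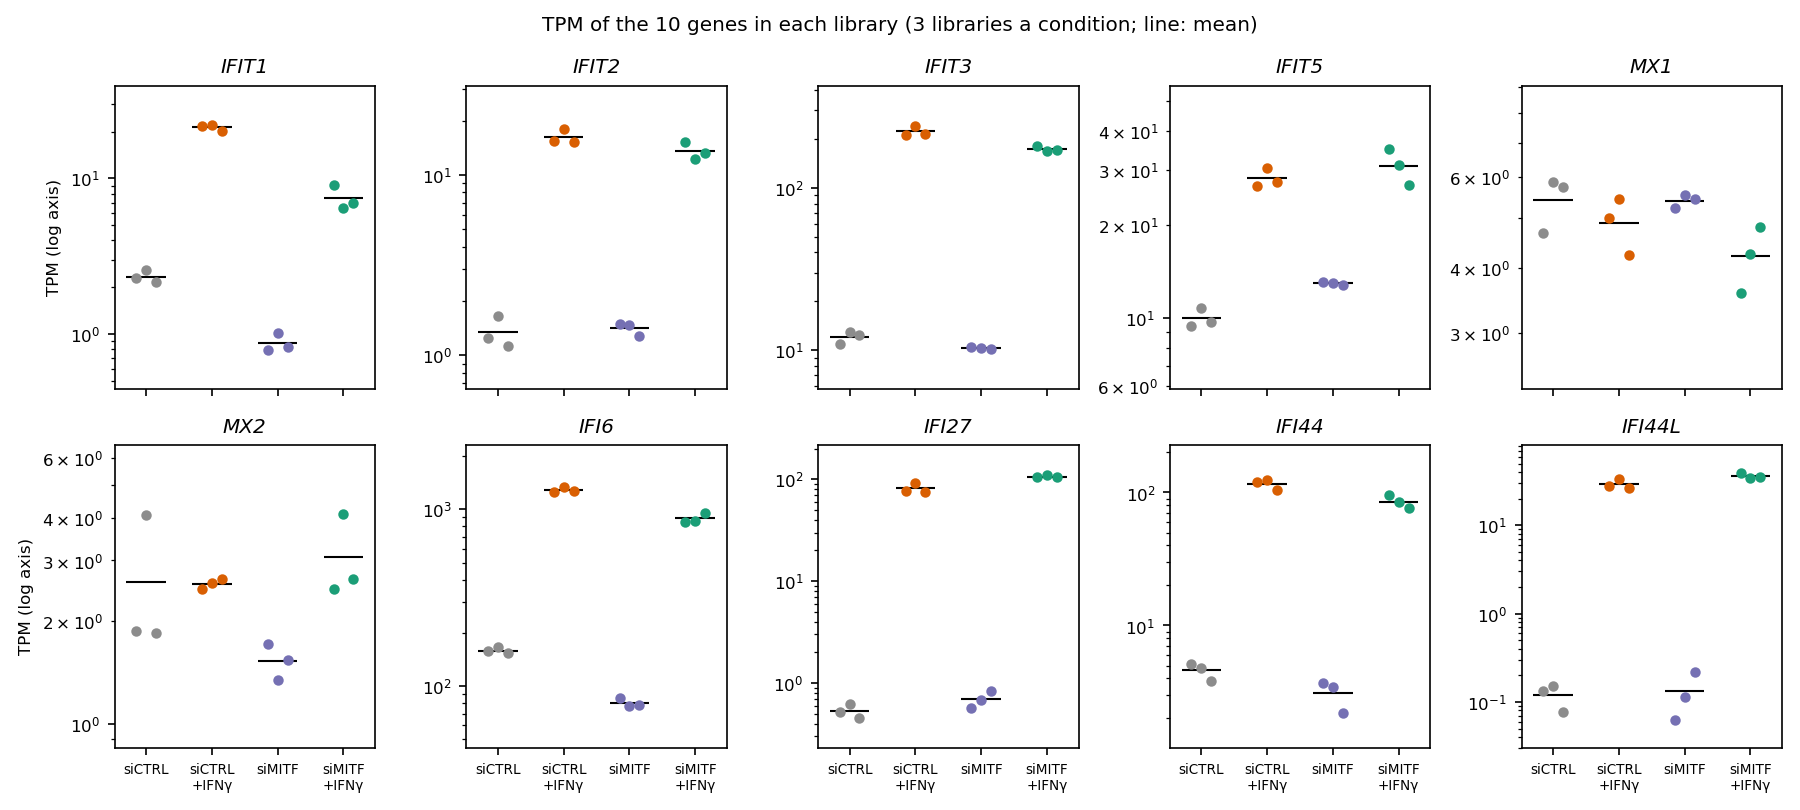
TPM of each of the 10 genes (1 panel each, log axis) in every library of the 4 conditions, with a horizontal line at the mean of 3 libraries. The IFNγ libraries of 8 genes sit above all libraries without IFNγ, from IFI44L (26.8 TPM or more against 0.219 TPM or less) to IFIT5 (26.6 TPM or more against 13.1 TPM or less), while those of MX1 and MX2 lie within or close to the range without IFNγ.

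Among the IFIT genes, IFIT3 reached the highest level. IFIT3, a scaffold that stabilises IFIT1, had 11.0, 12.9 and 12.5 TPM in the 3 siCTRL libraries and 212, 241 and 215 TPM with IFNγ. Every treated library was above every untreated library, and the mean rose 18.4-fold (log2 fold change 4.09, standard error 0.08, limma adjusted p = 1.34e-12). IFIT1, which binds capped RNA that lacks host-type methylation, had 2.28, 2.58 and 2.15 TPM without and 21.7, 22.1 and 20.3 TPM with IFNγ. The ranges were far apart and the mean rose 9.16-fold (log2 fold change 2.75, standard error 0.12, limma adjusted p = 2.93e-09). IFIT2, a partner of IFIT3, had 1.24, 1.66 and 1.12 TPM without and 15.3, 18.0 and 15.3 TPM with IFNγ, a 12.1-fold rise of the mean (log2 fold change 2.88, standard error 0.12, limma adjusted p = 1.79e-09). IFIT5, which binds RNA ends on its own and not as part of the IFIT1 complex, had 9.42, 10.8 and 9.67 TPM without and 26.6, 30.4 and 27.5 TPM with IFNγ. It rose least of the 8, by 2.83-fold (log2 fold change 1.41, standard error 0.10, limma adjusted p = 4.79e-07).

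The IFI genes spanned the smallest and largest starting levels. IFI6, which protects cells from apoptosis and restricts some RNA viruses, was already at 157, 167 and 154 TPM in siCTRL libraries and reached 1260, 1330 and 1262 TPM with IFNγ. It was the most abundant of the 10 in every condition, and its mean rose 8.07-fold (log2 fold change 3.01, standard error 0.07, limma adjusted p = 5.99e-12). IFI27, a relative of IFI6, had 0.525, 0.629 and 0.451 TPM without and 76.8, 92.7 and 75.7 TPM with IFNγ. Its change was the largest of the set on the log2(TPM + 1) scale and the 10th largest rise of all genes tested (log2 fold change 5.75, standard error 0.10, limma adjusted p = 4.96e-13, 153-fold in mean TPM).

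IFI44 had 5.18, 4.83 and 3.86 TPM without and 121, 123 and 105 TPM with IFNγ, a 25.1-fold rise (log2 fold change 4.39, standard error 0.15, limma adjusted p = 2.61e-10). IFI44L, its neighbour, had 0.132, 0.150 and 0.0762 TPM without and 27.9, 33.2 and 26.8 TPM with IFNγ. The libraries with and without IFNγ did not overlap for either gene, and IFI44L had the largest fold of mean TPM in the set (245-fold, log2 fold change 4.75, standard error 0.11, limma adjusted p = 4.85e-12), although its starting level was near 0 and the ratio is therefore imprecise. In TPM, which scale by transcript length and can be compared between genes, IFI44L stood at 2.54% ± 0.57 (SD, n = 3) of IFI44 in siCTRL and 25.2% ± 1.93 in siCTRL + IFNγ.

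MX1 and MX2 did not follow the other 8. MX1, which blocks influenza and other viruses, had 4.68, 5.87 and 5.76 TPM in siCTRL and 5.02, 5.45 and 4.24 TPM in siCTRL + IFNγ. The ranges overlapped (log2 fold change -0.13, 95% interval -0.39 to 0.14, limma adjusted p = 0.567), so the interval leaves out a rise of the size seen for IFIT5. MX2, a nuclear-pore-associated relative that restricts lentiviruses, had 1.86, 4.07 and 1.84 TPM without and 2.48, 2.57 and 2.64 TPM with IFNγ. The siCTRL replicate 2 library was above all 3 treated libraries and the other siCTRL libraries were below them (log2 fold change 0.05, 95% interval -0.41 to 0.50, limma adjusted p = 0.921). Without that library the value was 0.32 (limma adjusted p = 0.297).

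The same 8 genes rose with IFNγ in siMITF cells, against 2.72% of all genes tested, and the median log2 fold change of the 10 was 3.02, beside -0.10 for all genes. IFIT3 had 10.5, 10.4 and 10.2 TPM in siMITF and 182, 168 and 170 TPM in siMITF + IFNγ (log2 fold change 3.94, limma adjusted p = 1.36e-12). IFIT1 had 0.787, 1.02 and 0.822 TPM without and 9.09, 6.45 and 6.92 TPM with IFNγ (log2 fold change 2.17, limma adjusted p = 3e-08). Its mean rose 8.54-fold, from a lower start than in siCTRL cells. IFIT2 had 1.50, 1.47 and 1.28 TPM without and 15.3, 12.2 and 13.2 TPM with IFNγ (log2 fold change 2.59, limma adjusted p = 4.31e-09). IFIT5 had 13.1, 12.9 and 12.7 TPM without and 35.0, 31.1 and 26.9 TPM with IFNγ (log2 fold change 1.20, limma adjusted p = 2.32e-06). No treated library of an IFIT gene overlapped the untreated ones, which is a description without the share of all genes.

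IFI6 had 86.1, 77.1 and 77.9 TPM in siMITF and 853, 855 and 955 TPM in siMITF + IFNγ, an 11.0-fold rise (log2 fold change 3.45, limma adjusted p = 1.32e-12). IFI27 had 0.567, 0.688 and 0.826 TPM without and 105, 109 and 105 TPM with IFNγ (log2 fold change 5.99, limma adjusted p = 2.78e-13). These 2 relatives thus had non-overlapping groups, as in siCTRL cells. IFI44 had 3.70, 3.46 and 2.19 TPM without and 95.8, 84.1 and 76.6 TPM with IFNγ (log2 fold change 4.41, limma adjusted p = 1.88e-10). IFI44L had 0.0617, 0.115 and 0.219 TPM without and 38.8, 34.6 and 35.3 TPM with IFNγ (log2 fold change 5.04, limma adjusted p = 1.97e-12). IFI44L reached 42.6% ± 3.07 (SD, n = 3) of IFI44 in siMITF + IFNγ, beside 25.2% ± 1.93 in siCTRL + IFNγ, and the 3 library ratios of the 2 conditions did not overlap.

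The MX genes again stayed below the 2-fold limit on the log2(TPM + 1) scale. MX1 had 5.23, 5.54 and 5.45 TPM in siMITF and 3.59, 4.27 and 4.81 TPM in siMITF + IFNγ. All treated libraries were the lower ones (log2 fold change -0.30, 95% interval -0.56 to -0.04, limma adjusted p = 0.0997, and 0.0499 in the fit with replicate number as block). MX2 had 1.71, 1.34 and 1.54 TPM without and 2.48, 4.11 and 2.66 TPM with IFNγ, and all treated libraries were the higher ones. Its mean TPM was 2.02-fold higher, with a log2 fold change of 0.67 (95% interval 0.22 to 1.13, limma adjusted p = 0.0392). That adjusted p no longer stayed under 0.05 in 6 of 12 refits with 1 library omitted (each of the 3 siMITF libraries, siMITF + IFNγ replicates 2 and 3, and siCTRL + IFNγ replicate 3), at most 0.127 without siMITF replicate 2.

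**Figure D2:**
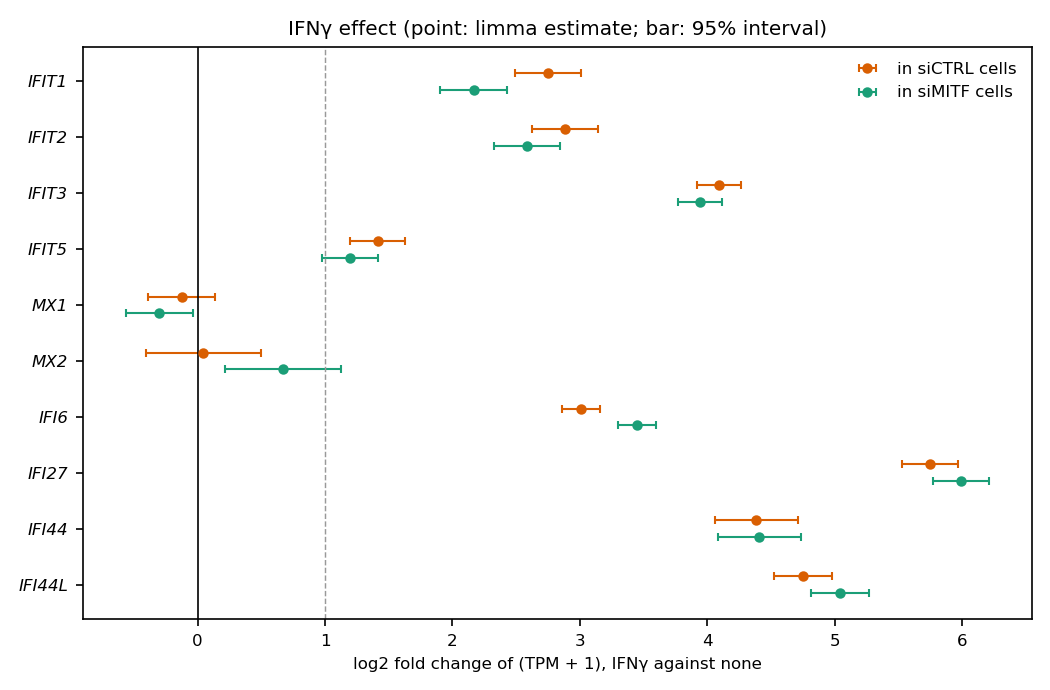
Log2 fold change of (TPM + 1) with IFNγ for each of the 10 genes, in siCTRL cells and in siMITF cells (points, limma estimates over 3 libraries a condition; bars, 95% intervals; dashed line, the limit of 1). For 8 genes both points lie to the right of the limit, from IFIT5 (1.41 and 1.20) to IFI27 (5.75 and 5.99), and for MX1 (-0.13 and -0.30) and MX2 (0.05 and 0.67) they lie to its left.

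Without IFNγ, none of the 10 genes was called changed with siMITF by limma, against 2.88% of all genes called lower and 3.22% called higher. An unadjusted limma p under 0.05 was found for 5 of the 10, and for 5576 of all 12773 genes tested. IFIT2, IFI27 and IFI44L were under 2 TPM in both of these conditions and so could not be called here, which leaves 7 genes that could. The nearest to the limit were IFI6 and IFIT1. IFI6 was lower in all 3 siMITF libraries (77.1 to 86.1 TPM) than in any siCTRL library (154 to 167 TPM), at 50.5% of the siCTRL mean (log2 fold change -0.98, standard error 0.07, limma adjusted p = 3.28e-07). It crossed the limit when siMITF replicate 1 (-1.03) or siCTRL replicate 3 was left out. IFIT1 was also lower in all 3 siMITF libraries (0.787 to 1.02 TPM against 2.15 to 2.58 TPM), at 37.5% of the siCTRL mean (log2 fold change -0.83, standard error 0.12, limma adjusted p = 1.67e-04). A smaller pseudocount took IFIT1 over the limit (log2 fold change -1.32 at 0.1 and -1.04 at 0.5).

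IFI44 and IFIT5 also had a limma adjusted p under 0.05 for siMITF without IFNγ, in opposite directions. IFI44 stood at 67.5% of the siCTRL mean (log2 fold change -0.46, limma adjusted p = 0.0304), with the highest siMITF library at 3.70 TPM and the lowest siCTRL library at 3.86 TPM. The limma adjusted p was 4.94e-04 in the fit with replicate number as block. Without the block, it was 0.05 or more when siCTRL replicate 1, siCTRL replicate 2 or siMITF replicate 3 was left out, at most 0.127 (log2 fold change -0.29) without the last. IFIT5 was 1.30-fold higher (log2 fold change 0.35, limma adjusted p = 0.0179), and its adjusted p was 0.05 or more without replicate 1 or 3 of siCTRL or replicate 1 or 2 of siMITF, at most 0.0696. IFIT3 was at 85.4% of the siCTRL mean (log2 fold change -0.21, limma adjusted p = 0.0608, and 0.0315 in the fit with replicate number as block). Without siCTRL replicate 1 it was 0.032, and it was also under 0.05 without siCTRL + IFNγ replicate 2. For IFIT2, MX1, IFI27 and IFI44L the siMITF and siCTRL libraries overlapped, and the estimates lay between -0.002 and 0.14. MX2 had an estimate of -0.45 (95% interval -0.91 to 0.001, limma adjusted p = 0.115), which was -0.18 without siCTRL replicate 2 (limma adjusted p = 0.442).

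With IFNγ present, IFIT1 was the only one of the 10 called lower in siMITF cells and none was called higher, against 2.57% and 3.12% of all genes. It stood at 7.49 ± 1.41 TPM in siMITF + IFNγ and 21.4 ± 0.96 TPM in siCTRL + IFNγ (SD, n = 3), or 35.0% (log2 fold change -1.41, standard error 0.12, limma adjusted p = 1.98e-06). The highest siMITF + IFNγ library, at 9.09 TPM, was below the lowest siCTRL + IFNγ library, at 20.3 TPM. The neighbouring IFIT genes did not share this size of difference. IFIT3 stood at 77.9% (log2 fold change -0.36, limma adjusted p = 0.00399), IFIT2 at 83.6% with overlapping libraries (-0.24, limma adjusted p = 0.138) and IFIT5 at 1.10-fold with overlapping libraries (0.13, limma adjusted p = 0.364).

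The IFI genes differed in sign in this comparison. IFI6 was at 69.1% of its siCTRL + IFNγ mean (log2 fold change -0.53, limma adjusted p = 6.89e-05) and IFI44 at 73.6% (-0.44, limma adjusted p = 0.0396). IFI27 was 1.30-fold higher (log2 fold change 0.38, limma adjusted p = 0.0106) and IFI44L 1.24-fold higher (0.30, limma adjusted p = 0.0424). None of these 4 had overlapping libraries, and all 4 stayed below the 2-fold limit. The share of all genes without overlap was not computed for any comparison, so the lack of overlap is only a description. The adjusted p rose to 0.05 or more for IFI27 without siCTRL + IFNγ replicate 3 (0.0569). For IFI44 it did so in 4 of 12 refits with 1 library omitted (replicates 1 and 2 of siCTRL + IFNγ, and 2 and 3 of siMITF + IFNγ), at most 0.131, while the fit with replicate number as block gave 7.51e-04. For IFI44L it did so in 9 of the 12 (all but siCTRL replicate 2, siCTRL + IFNγ replicate 2 and siMITF replicate 3), at most 0.166. MX1 and MX2 had overlapping libraries (log2 fold changes -0.18 and 0.17, limma adjusted p = 0.290 and 0.567). The median of the 10 was -0.21 with IFNγ and -0.10 without, beside 0.03 and 0.06 for all genes.

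**Figure D3:**
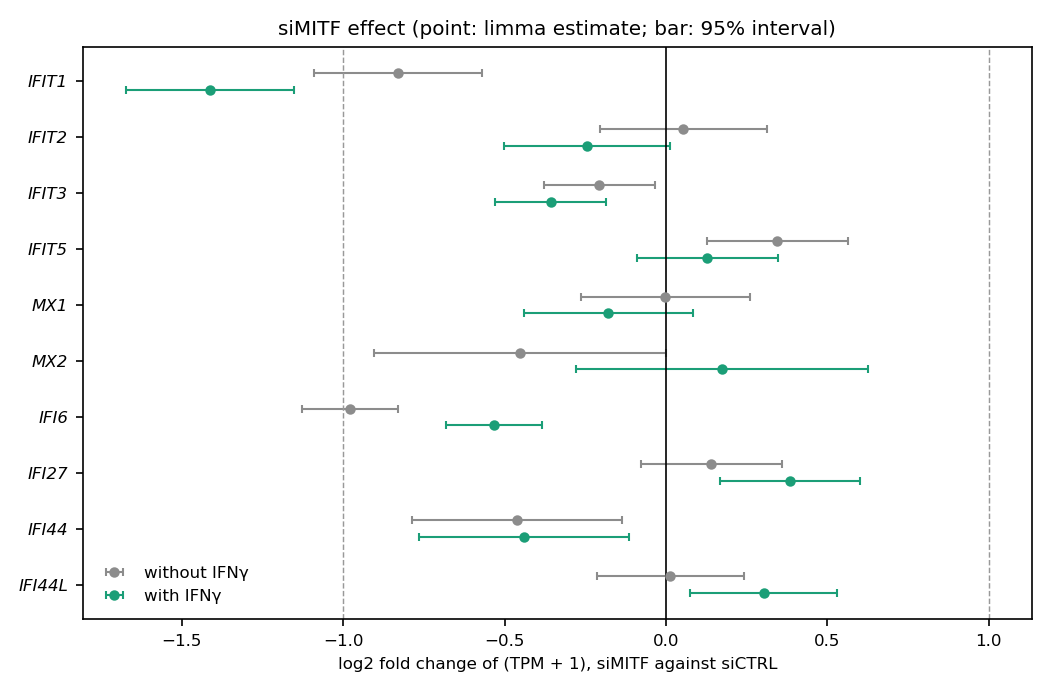
Log2 fold change of (TPM + 1) of siMITF against siCTRL for each of the 10 genes, without and with IFNγ (points, limma estimates over 3 libraries a condition; bars, 95% intervals; dashed lines, the limits of -1 and 1). Only the point of IFIT1 with IFNγ (-1.41) lies beyond a limit, and IFI6 without IFNγ (-0.98) lies next to it.

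Whether MITF knockdown changed the response to IFNγ was tested by the interaction, which is the log2 fold change with IFNγ under siMITF less that under siCTRL. None of the 10 genes was called by limma, with an absolute interaction over 1 and an adjusted p under 0.05, or with an adjusted p under 0.05 at any size, and 2 had an unadjusted p under 0.05. Of all genes tested, 0.478% were called and 0.947% had an adjusted p under 0.05 at any size. An unadjusted limma p under 0.05 was found for 980 of all 12773. The 2 of the set were IFI6 and IFIT1, with opposite signs. IFI6 had an interaction of 0.45 (95% interval 0.23 to 0.66, limma adjusted p = 0.0597, and 0.0264 in the fit with replicate number as block): it started lower in siMITF cells and rose by a larger factor. IFIT1 had an interaction of -0.58 (95% interval -0.95 to -0.21, limma adjusted p = 0.211, and 0.0412 without siMITF + IFNγ replicate 1). With a pseudocount of 0.1 the IFIT1 interaction was -0.20, and in mean TPM its rise was 9.16-fold in siCTRL cells and 8.54-fold in siMITF cells.

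For the 8 other genes the interaction ranged from -0.30 for IFIT2 to 0.63 for MX2, and limma adjusted p values were 0.673 or more. On the log2(TPM + 1) scale, the intervals bound what these libraries could have missed. IFI27 and IFI44L were under 1 TPM in every library without IFNγ. For them the intervals do not bound a change in the fold of mean TPM. For IFIT3 the interval was -0.39 to 0.09, for IFI27 -0.07 to 0.55 and for IFI44 -0.44 to 0.48, and for MX2, the least precise, -0.02 to 1.27 (estimate 0.63, and 0.35 without siCTRL replicate 2). An interaction of 1 in size, a 2-fold change of the response on the (TPM + 1) scale, thus lay outside the interval of each of the 10 genes but MX2.

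With IFNγ, the order of levels within the set differed between siRNAs at 2 pairs of neighbours. In siCTRL + IFNγ the order by mean TPM was IFI6 (1284), IFIT3 (223), IFI44 (116), IFI27 (81.7), IFI44L (29.3), IFIT5 (28.2), IFIT1 (21.4), IFIT2 (16.2), MX1 (4.90) and MX2 (2.56). Only IFI44L and IFIT5 were neighbours with overlapping libraries. In siMITF + IFNγ, IFI27 (106) stood above IFI44 (85.5) and IFIT2 (13.5) above IFIT1 (7.49), and the overlapping neighbours were IFI44L with IFIT5 and MX1 with MX2. Without IFNγ the order was different. In siCTRL, IFI6 was followed by IFIT3, IFIT5, MX1, IFI44, MX2 and IFIT1, where each neighbour from MX1 to IFIT1 overlapped the next, and then by IFIT2, IFI27 and IFI44L. In siMITF, IFIT5 (12.9) stood above IFIT3 (10.3).

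Ratios within a library do not depend on how that library was scaled. Without IFNγ, IFIT1 stood at 19.3% ± 1.89 of IFIT3 in siCTRL and 8.48% ± 1.26 in siMITF, and with IFNγ at 9.65% ± 0.58 and 4.30% ± 0.62 (SD, n = 3). The ratio was thus lower with siMITF whether or not IFNγ was present. IFIT2 stood at 7.28% ± 0.21 of IFIT3 in siCTRL + IFNγ and 7.80% ± 0.58 in siMITF + IFNγ, means that lie within about 1 SD of each other. MX1 stood at 120% ± 29.3 of IFI44 in siCTRL and at 4.21% ± 0.19 in siCTRL + IFNγ.

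Genes upstream of the set were read from lists of the pathway. None of 11 genes for type I and type III interferons passed the filter on low values, and IFNB1, IFNA1, IFNL1, IFNL2 and IFNL3 were listed at 0 in all 12 libraries. Of 6 genes for the type I receptor, its kinases and ISGF3 subunits, 3 rose with IFNγ in siCTRL cells and 3 in siMITF cells: IFNAR2, STAT2 and IRF9. IFNAR1, IFNAR2 and TYK2 had log2 fold changes of 0.26, 1.02 and 0.10 in siCTRL cells and 0.21, 1.08 and -0.25 in siMITF cells. STAT2 and IRF9 were singled out after their values were seen. STAT2 went from a mean of 17.6 to 104 TPM with IFNγ in siCTRL cells and from 21.8 to 127 TPM in siMITF cells. IRF9, the DNA-binding subunit of ISGF3, went from 7.93 to 41.2 TPM and from 4.51 to 38.9 TPM. The estimate of IRF9 was tied with that of another gene ID in every comparison. Whether that ID held the same TPM was not checked. Without IFNγ, IRF9 was lower with siMITF but within the limit (log2 fold change -0.69, limma adjusted p = 6.97e-05), and its interaction was 0.62 (limma adjusted p = 0.0448). For STAT2 the same estimates were 0.295 and 0.002. A link of either gene to the set was not tested. None of the 6 was called changed by siMITF with or without IFNγ by limma, and 1 in each case had an adjusted p under 0.05 (IRF9 without IFNγ and TYK2 with it). The 3 genes IFNGR1, IFNGR2 and JAK2, for the IFNγ receptor and its kinase, were not called changed by IFNγ (log2 fold changes -0.06, -0.07 and 0.06 in siCTRL cells and -0.11, -0.37 and 0.26 in siMITF cells).

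Of 20 other classical type I genes listed, 17 were tested, and 15 rose with IFNγ in siCTRL cells and 16 in siMITF cells, with median log2 fold changes of 2.43 and 2.51, against 2.42% and 2.72% of all genes. Of these 17, 7 reached 2 TPM only with IFNγ, and of the 10 others 8 rose in siCTRL cells and 9 in siMITF cells. OAS1, OAS2 and OAS3, enzymes that activate RNase L, had log2 fold changes of 4.42, 3.69 and 2.57 in siCTRL cells and 3.46, 4.21 and 2.39 in siMITF cells. HERC5, an ISG15 ligase singled out after its values were seen, was like MX1 and MX2 not called in either (0.24 and 0.17). Without IFNγ, 2 of the 17 were called lower with siMITF, both named after their values were seen: ISG20, an exonuclease (log2 fold change -2.40, limma adjusted p = 1.39e-09), and PLSCR1, a phospholipid scramblase (-1.12, limma adjusted p = 1.81e-06). With IFNγ present only ISG20 was called lower (-1.62, limma adjusted p = 3.45e-08), with an interaction of 0.79 (limma adjusted p = 0.00786). The median of the 17 was -0.19 both without and with IFNγ.

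With IFNγ present, genes typical of the IFNγ response had mostly higher siMITF estimates than the 10. The list was chosen with earlier results of these data known, and it holds CD274, which the study named as a non-additive gene. Its signs are therefore a description and not an independent test. All 15 listed rose with IFNγ in both siRNA backgrounds, with medians of 4.57 and 5.26, but 11 of them reached 2 TPM only with IFNγ and so entered the test through the treated libraries. With IFNγ present, all 15 had a positive siMITF estimate, 6 were called higher and the median was 0.88. Of the 10 IFIT, MX and IFI genes, 4 had a positive estimate, none was called higher and the median was -0.21. Among all genes tested, 53.2% had a positive estimate in this comparison and 3.12% were called higher. The interaction was positive for all 15 (5 called, median 0.62), for 11 of the 17 other type I genes (none called by limma, 1 with an adjusted p under 0.05, median 0.26) and for 5 of the 10 (none called, median -0.06). Of all genes tested, 42.3% had a positive interaction and 0.478% were called. These signs hold on the log2(TPM + 1) scale and depend on it for genes that start near 0. In mean TPM, the rise with IFNγ was smaller in siMITF than in siCTRL cells for CXCL10 (1510-fold and 6720-fold) and IDO1 (762-fold and 5820-fold). The same held for SOCS1 (5.74-fold and 14.2-fold) and PSMB9 (52.9-fold and 64.6-fold). It was larger in siMITF cells for each of the other listed IFNγ-type genes. IRF1 had log2 fold changes with IFNγ of 4.67 and 5.26, and GBP1 and GBP2, GTPases of intracellular defence, of 7.996 and 8.62 and of 4.57 and 5.50. The difference between the lists was not tested.

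Across the 12 libraries, the mean log2(TPM + 1) of the 10 genes was followed most closely by UBE2L6 (Pearson r = 0.9980), TRIM22 (0.9980), SP100 (0.9968), OASL (0.9967) and RTP4 (0.9966), ranked over all other genes tested. UBE2L6, the conjugating enzyme for ISG15, went from a mean of 1.06 to 184 TPM with IFNγ in siCTRL cells and from 0.638 to 173 TPM in siMITF cells. The 12 points share the step between libraries with and without IFNγ, so r is given as a description with no test. Of the 10, IFIT3 followed the mean of the set most closely (0.999) and IFIT1 least among the induced genes (0.932), while MX2 (0.557) and MX1 (-0.603) did not track it.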

How the data were processed

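RNA of 624Mel cells in 4 conditions, 3 libraries each, was measured by sequencing. Per the methods, the authors cleaned the reads (Trimmomatic 0.39), ran kallisto against Ensembl's GRCh38 transcript set and deposited TPM per gene and library. The Ensembl release and the tool that summed transcripts are not given in the sources used here. TPM are scaled to each library, so a large rise of some genes lowers the values of the rest. Their differential expression used DESeq2 1.26.0 on counts, which are not used here.

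Groups came from the sample titles. limma 3.58.1 (R 4.3.3) was fitted to log2(TPM + 1) of the 12773 gene IDs whose mean reached 2 TPM in some condition, over all 12 libraries with 1 coefficient per condition and trended moderation, and two-sided p-values received Benjamini-Hochberg adjustment over all genes tested. It was checked on simulated data with independent noise in each library, so the check does not cover libraries that share a replicate. The libraries of a condition are taken as replicates, described in general in the study's methods as independent biological replicates. The labels do not say which cultures the libraries came from, so p-values measure the spread between these libraries. An exact two-sided permutation test of 3 against 3 libraries cannot go below 0.1 and was not used. The fit had no term for the replicate number, and a fit with it as a block was an alternative. Deviations from the condition means correlated in all 18 same-number pairs (0.102 to 0.63, median 0.28). For different numbers the median was -0.20, but 6 of 36 such pairs were over 0.1 and the highest was 0.23. Centring on the condition means pushes the different-number values down, so their median is not separate support. The numbers in the titles may pair the libraries, which was not tested.

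The named genes were the 10 members with values in every library, MITF, and up to the first 3 tested of each context list. An item of the receptor and ISGF3 list is not reported here. The members and lists were chosen with earlier results of these data known. Alternatives covered the pseudocount, filter, scaling, moderation, thresholds, replicate block, libraries fitted, gene IDs summed by symbol, and each library left out. Loci came from GENCODE and promoters from RefSeq.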

Additional observations from a re-analysis of the deposited data

How the results depend on the processing

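The 8 genes called higher with IFNγ were called in both siRNA backgrounds under all 24 alternatives, and IFIT1 was called lower with siMITF and IFNγ under all 24. The number called for siMITF without IFNγ, 0, became 1 with a pseudocount of 0.1 or 0.5 (IFIT1), 1 with libraries centred on their median (IFI6), 4 without a limit on size, and 0 to 1 when 1 library was left out (IFI6). For siMITF with IFNγ the number, 1, became 6 without a limit on size. Without that limit, 4382 of all 12773 genes tested were called for siMITF without IFNγ and 4153 with it. In the fit with replicate number as block (replicate block), the numbers called were 8, 8, 0, 1 and 0 in the 5 comparisons, as without it, and beyond the adjusted p values given above for MX1, IFIT3 and IFI6 no adjusted p changed side of 0.05. Signs turned only where the adjusted p was 0.309 or more. Quantile normalization turned MX2 with IFNγ in siCTRL (-0.029) and IFIT2 (-0.159), IFI27 (-0.035) and IFI44L (-0.076) for siMITF without IFNγ, and median centring turned IFI44L (-0.020). Leaving out 1 library gave -0.096 to 0.323 for MX2 with IFNγ in siCTRL, -0.152 to 0.128 for the IFI44 interaction, and for siMITF without IFNγ -0.089 to 0.048 for MX1, -0.013 to 0.149 for IFIT2 and -0.041 to 0.059 for IFI44L. The cause of these changes was not tested. MX1 and MX2 were not tested with a mean of 5 TPM over all libraries, and the interaction cannot be fitted with only 2 conditions. Depth is unknown, so no counting interval is given for the lowest genes (IFI44L, IFI27 and MX2).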
